A study of Drosophila melanogaster with 8 samples.

Results

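The mitochondrial ATP synthase (complex V) was followed through 10 of its subunit genes, blw, ATPsynbeta, ATPsyngamma, ATPsyndelta, ATPsynO, ATPsynB, ATPsynD, ATPsynC, ATPsynF and ATPsynG. The genes were chosen by name from the 13982 genes of a table of read counts from Drosophila heads, and all 10 passed the filter on low counts. ND-75, the fly homolog of human NDUFS1 and a subunit of complex I of the respiratory chain, was knocked down in neurons, and RNA was sequenced from 4 ND-75 KD and 4 Control libraries. Each library was made from 20 heads, 10 male and 10 female, of flies 2 days old. ND-75 KD flies had the genotype nSybGal4/ND-75 RNAi, with the short hairpin line HMS00853, and Control flies had the genotype nSybGal4/w[1118]. All 8 libraries therefore carried the nSyb-Gal4 driver, which is active in neurons, while the libraries were made from whole heads that also hold glia, fat body, muscle and other cells. The RNAi line is described in the study as leaky without a driver, and the Control flies did not carry it. The study's methods also name a temperature-sensitive Gal80, which the sample labels do not mention. The libraries are called biological replicates, but whether the pools of a genotype came from separate crosses is not stated, so a p value here measures the spread between pools.

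The ATP synthase makes ATP at the inner mitochondrial membrane from the proton gradient that the respiratory chain builds. Protons pass through the membrane part, F0, and turn a ring of c subunits, and the central stalk carries that rotation into the soluble F1 part, where ATP is formed. A peripheral stalk holds F1 still against the turning ring, and most subunits are encoded in the nucleus, with the remainder in the mitochondrial genome.

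In ND-75 KD heads 9 of the 10 genes were lower than in Control heads and none was higher, by the edgeR quasi-likelihood test at a Benjamini-Hochberg adjusted p under 0.05. Of all 9986 genes tested, 18.9% were called lower and 14.3% were called higher. The median log2 fold change (ND-75 KD over Control) of the 10 genes was -0.57, against -0.01 over all tested genes. The 4 F1 genes and the 3 peripheral stalk genes were all called lower, as were 2 of the 3 F0 genes, and ATPsynC, which encodes the c subunit of the ring, was the member that missed the threshold. In 9 of the 10 genes the highest ND-75 KD library was under the lowest Control library, a separation that 19.0% of all tested genes showed in the same direction, and ATPsynG was the exception. Lower RNA in a whole head may come from less RNA per cell or from fewer cells of a type, and bulk libraries cannot tell these apart.

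**Figure D1:**
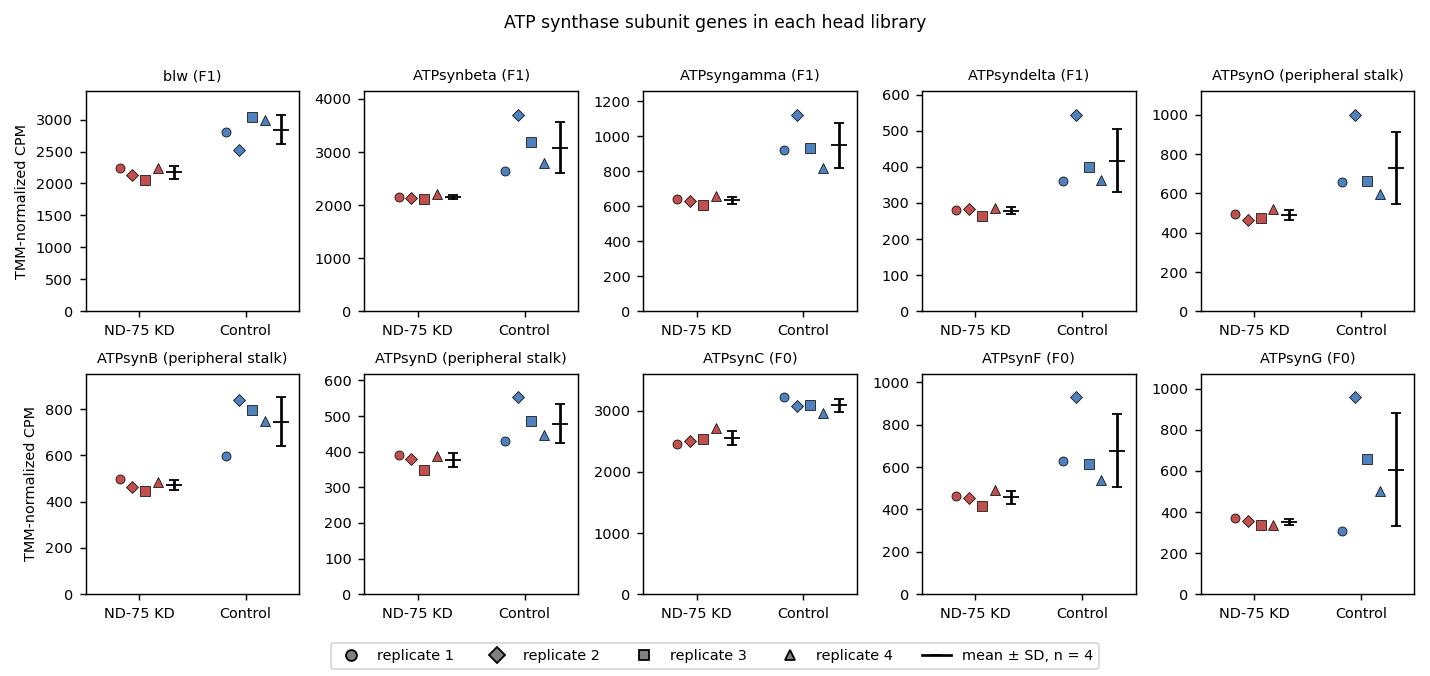
Level of each of the 10 ATP synthase genes in TMM-normalized CPM, with the 4 ND-75 KD libraries (red) left of the 4 Control libraries (blue), marker shape for the replicate number, and bars for the mean ± SD (n = 4). The ND-75 KD libraries lie close together in every panel and below all Control libraries except for ATPsynG, and Control replicate 2 (diamond) is the highest Control library for 8 of the genes.

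Several features of the libraries bear on these genes. Library totals were 17448199 to 24071517 counts in ND-75 KD heads and 21758154 to 24680283 counts in Control heads, and the 10 genes drew between 5659 and 78633 reads each in any library. Levels are given as CPM, the counts scaled to library size with TMM factors. ND-75 itself averaged 306 ± 16.0 CPM in ND-75 KD heads, against 626 ± 64.9 CPM in Control heads (SD, n = 4 each; log2 fold change -1.03 ± 0.11 SE; edgeR adjusted p = 1.48e-04). Control replicate 2 stood apart. The mitochondrial rRNA gene mt:lrRNA took 23.9% of its counts and 4.58 to 9.0% in the other libraries, and its sample weight in limma voom was 0.286, the lowest of the 8. Fold changes also followed gene length, with a median log2 fold change of -0.37 in the 999 shortest tested genes (up to 801 bases) and 0.23 in the 999 longest (from 5882 bases). The members' results are therefore also given without Control replicate 2 and after removal of the trend with length from each library.

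The catalytic F1 head is built of alternating alpha and beta subunits. The alpha subunit gene blw (FBgn0011211, 2R:22799099-22802180, plus strand, coordinates of the deposited table on BDGP6) had 2247, 2139, 2053 and 2249.6 CPM in ND-75 KD replicates 1 to 4, against 2812, 2527, 3046 and 2993 CPM in Control replicates 1 to 4. The groups did not overlap, and Control replicate 2 was the lowest Control library, unlike in most of the other members. The blw level was 23.6% lower in ND-75 KD heads (log2 fold change -0.39 ± 0.12 SE, edgeR adjusted p = 0.0305).

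ATPsynbeta, which encodes the subunit with the catalytic sites, lies on the fourth chromosome (FBgn0010217, 4:1031484-1034917, plus strand). It had 2158, 2125, 2111 and 2211 CPM in ND-75 KD replicates 1 to 4, against 2638, 3706, 3189 and 2802 CPM in Control replicates 1 to 4. No ND-75 KD library reached the lowest Control library, and Control replicate 2 was the highest of the 8. The gene was 30.2% lower in ND-75 KD heads (log2 fold change -0.52 ± 0.14 SE, edgeR adjusted p = 0.0159). Its exons overlap those of CG11076 on the other strand, and since the use of strand in counting is not given in the sources used here, reads from the shared bases cannot be told apart.

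The central stalk turns inside the F1 head. ATPsyngamma (FBgn0020235, 3R:29747704-29749163, minus strand), the shaft of the rotor, had 641, 633, 609 and 657 CPM in ND-75 KD replicates 1 to 4, against 920.1, 1125, 931 and 819.9 CPM in Control replicates 1 to 4. All Control libraries were above all ND-75 KD libraries, and the level was 33.1% lower in ND-75 KD heads (log2 fold change -0.58 ± 0.12 SE, edgeR adjusted p = 0.00508). ATPsyndelta (FBgn0028342, X:10212970-10217393, plus strand), a subunit at the foot of the central stalk, had 281, 283, 264 and 285 CPM in ND-75 KD replicates 1 to 4, against 361, 545, 399 and 363 CPM in Control replicates 1 to 4. Again the groups did not overlap, with Control replicate 2 well above the other Control libraries. ATPsyndelta was 33.2% lower in ND-75 KD heads (log2 fold change -0.58 ± 0.14 SE, edgeR adjusted p = 0.0102), and its exons overlap those of CG2962 on the other strand.

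The peripheral stalk genes included the member with the smallest adjusted p, ATPsynB. ATPsynB (FBgn0019644, 3L:9729999-9731224, plus strand), the long b subunit that spans from the membrane to F1, had 497, 465, 446 and 485 CPM in ND-75 KD replicates 1 to 4, against 598, 840.4, 795 and 749.7 CPM in Control replicates 1 to 4. The lowest Control library was above every ND-75 KD library, and ATPsynB was 36.6% lower in ND-75 KD heads (log2 fold change -0.66 ± 0.13 SE, edgeR adjusted p = 0.00325). ATPsynO (FBgn0016691, 3R:15265591-15266690, plus strand) encodes OSCP, which joins the stalk to the top of F1. It had 495, 465, 476 and 522 CPM in ND-75 KD replicates 1 to 4, against 659.8, 1001, 664 and 596 CPM in Control replicates 1 to 4. The groups did not overlap, and the other Control libraries lay close together with Control replicate 2 far above them. The fold change was -0.58 ± 0.16 on the log2 scale (SE, edgeR adjusted p = 0.0200), and the exons of ATPsynO overlap those of CG14864 on the other strand.

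ATPsynD (FBgn0016120, 3R:19095000-19096271, plus strand), the d subunit of the peripheral stalk, showed the smallest decrease among the called members. Its levels were 391, 379, 347 and 389 CPM in ND-75 KD replicates 1 to 4, against 429.6, 552, 485 and 448 CPM in Control replicates 1 to 4. The groups were separate but close, with a log2 fold change of -0.35 ± 0.11 (SE, edgeR adjusted p = 0.0356), or 21.3% lower in ND-75 KD heads.

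In the membrane, ATPsynC (FBgn0039830, 3R:31216145-31219630, minus strand) had 2463, 2514, 2539 and 2724 CPM in ND-75 KD replicates 1 to 4, against 3219, 3081, 3089 and 2964 CPM in Control replicates 1 to 4. The groups did not overlap, and Control replicate 2 was in the middle of the Control libraries. The log2 fold change was -0.27 ± 0.11 (SE) and was not called (edgeR adjusted p = 0.0912), whereas DESeq2 called it at -0.26 (adjusted p = 0.00290) and limma voom with sample weights called it at -0.28 (adjusted p = 0.0222). DESeq2 called all 10 members lower, with 20.4% of all genes lower by that tool. ATPsynC shares exon bases with mir-4949 on its own strand.

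ATPsynF (FBgn0035032, 2R:24599088-24599821, minus strand) and ATPsynG (FBgn0010612, 2L:10975522-10976399, minus strand) encode the small membrane subunits f and g, and subunit g is known from yeast and mammals to sit where ATP synthases pair into dimers. ATPsynF had 465, 455, 417 and 491 CPM in ND-75 KD replicates 1 to 4, against 628, 929, 612 and 541 CPM in Control replicates 1 to 4. It was 32.5% lower in ND-75 KD heads, with separate groups (log2 fold change -0.57 ± 0.16 SE, edgeR adjusted p = 0.0231), and its exons overlap those of CG13587 on the other strand. ATPsynG had 372, 359, 338 and 338 CPM in ND-75 KD replicates 1 to 4, against 309, 958, 658 and 501 CPM in Control replicates 1 to 4. This was the widest spread of any member, with Control replicate 1 below all ND-75 KD libraries and Control replicate 2 the highest. ATPsynG had the largest fitted difference and the largest error (log2 fold change -0.79 ± 0.27 SE), and its call was close to the threshold (edgeR adjusted p = 0.0471).

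The spread of the members differed between the genotypes. In ND-75 KD heads the coefficient of variation across the 4 libraries was 2.07 to 6.68%, lowest for ATPsynbeta and highest for ATPsynF. In Control heads it was 3.38 to 45.3%, lowest for ATPsynC and highest for ATPsynG, and ATPsynC was the only member that varied less in Control heads than in ND-75 KD heads. The difference in spread was not tested. Per kilobase of gene, ATPsynC had the highest level in both genotypes, with 1244 to 1376 CPM per kb in ND-75 KD heads, against 1497 to 1626 CPM per kb in Control heads. ATPsyndelta had the lowest level per kilobase, with 69.3 to 74.6 CPM per kb in ND-75 KD heads, against 94.5 to 142.8 CPM per kb in Control heads, on a gene length of 3817 bases that merges transcripts of 666 to 3817 bases. In ND-75 KD heads the order was ATPsynC, blw, ATPsynbeta, ATPsynF, ATPsynO, ATPsynB, ATPsynG, ATPsyngamma, ATPsynD and ATPsyndelta, and among neighbours in that order blw and ATPsynbeta overlapped across libraries, as did ATPsynG and ATPsyngamma. In Control heads ATPsynbeta came before blw, and every pair of neighbours overlapped except ATPsynD and ATPsyndelta.

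The subunits of a part were also summed, to compare the parts with each other in the same libraries. F1 summed to 2374 ± 74.0 CPM per kb in ND-75 KD heads, against 3315 ± 237 CPM per kb in Control heads, a ratio of 0.716. For the peripheral stalk the sums were 1522 ± 68.5 CPM per kb in ND-75 KD heads, against 2227 ± 364 CPM per kb in Control heads, a ratio of 0.683. The F0 genes summed to 2482 ± 88.4 CPM per kb in ND-75 KD heads, against 3430 ± 592 CPM per kb in Control heads (SD, n = 4 each), a ratio of 0.724. These sums are descriptions of chosen genes and carry no test.

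Within each library the balance of F1 to F0 was 0.978, 0.953, 0.956 and 0.942 in ND-75 KD replicates 1 to 4, against 1.01, 0.838, 1.01 and 1.05 in Control replicates 1 to 4. The ND-75 KD libraries lay between Control replicate 2 and the other Control libraries, so the groups overlapped with Control replicate 2 and did not without it (0.957 ± 0.0150 in ND-75 KD heads, SD, n = 4, and 1.03 ± 0.0211 in the other Control heads, SD, n = 3). That separation was not kept with ATPsynC left out of F0. The ratio of F1 to ATPsynF and ATPsynG was then 1.96 to 2.06 in ND-75 KD heads. It was 1.88 to 2.18 in Control heads without Control replicate 2, so those groups overlapped. Leaving ATPsynF or ATPsynG out of F0 instead was not described, so the separation is not credited to ATPsynC alone. The balance of F1 to the peripheral stalk was 1.54, 1.58, 1.58 and 1.54 in ND-75 KD replicates 1 to 4, against 1.60, 1.31, 1.56 and 1.56 in Control replicates 1 to 4. Here the groups overlapped with and without Control replicate 2. The ratio of alpha (blw) to beta (ATPsynbeta) was 1.10, 1.07, 1.03 and 1.08 in ND-75 KD replicates 1 to 4, against 1.13, 0.722, 1.01 and 1.13 in Control replicates 1 to 4, with overlap again and Control replicate 2 alone below 1.

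**Figure D2:**
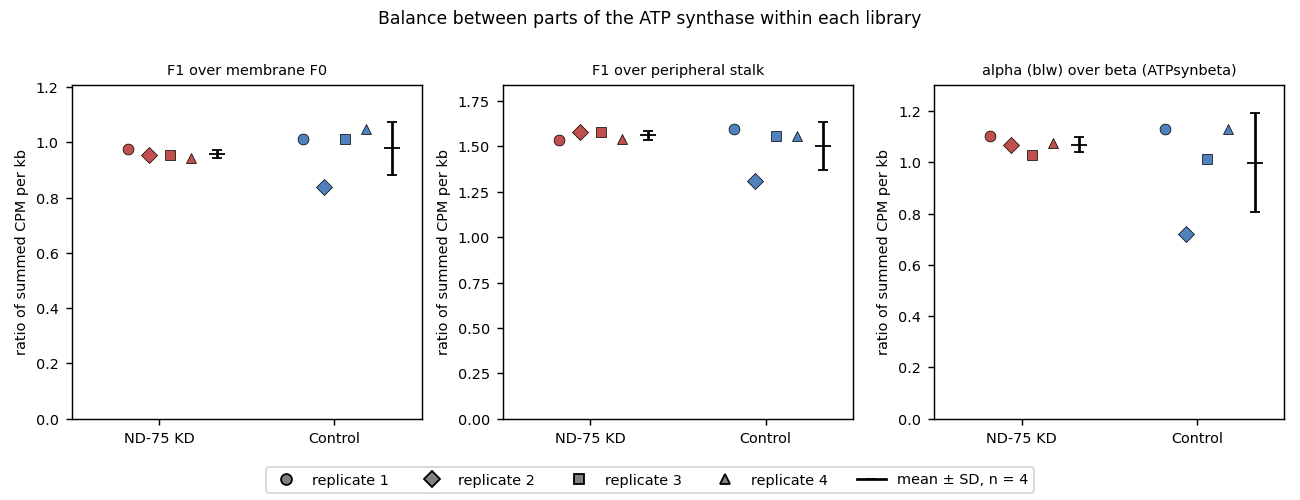
Ratio of summed CPM per kb of F1 to F0, of F1 to the peripheral stalk and of blw to ATPsynbeta in each library, with ND-75 KD (red) left of Control (blue) and bars for the mean ± SD (n = 4). Control replicate 2 (diamond) lies below all other libraries in each panel, at 0.838, 1.31 and 0.722.

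ATPsynC made up 50.3, 51.5, 53.7 and 52.9% of the summed F0 level in ND-75 KD replicates 1 to 4, against 53.5, 36.4, 46.0 and 49.7% in Control replicates 1 to 4. The low share in Control replicate 2 came with the high levels of ATPsynF and ATPsynG in that library. The log2 ratio of Control replicate 2 to the mean of the other Control libraries was 0.97 for ATPsynG, 0.65 for ATPsynF, 0.65 for ATPsynO and 0.54 for ATPsyndelta, against -0.22 for blw and -0.00 for ATPsynC. Without Control replicate 2, 8 of the 10 genes were called lower, with 19.0% of all genes lower in that fit. The 4 F1 genes and the 3 peripheral stalk genes were called, at log2 fold changes of -0.41 to -0.48 for F1 and -0.27 to -0.59 for the stalk. Of the F0 genes ATPsynF was called at -0.37 (edgeR adjusted p = 0.0150), while ATPsynG had -0.47 (adjusted p = 0.0894) and ATPsynC had -0.27 (adjusted p = 0.0600).

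The F1 genes were mostly longer than the stalk and F0 genes. Annotated gene lengths were 1460 to 3817 bases for F1, 802 to 950 bases for the peripheral stalk and 615 to 1980 bases for F0. After removal of the trend with gene length 5 of the 10 genes were called lower, with 18.5% of all genes lower in that fit. The 4 F1 genes were called, at -0.36 for blw, -0.51 for ATPsynbeta, -0.40 for ATPsyngamma and -0.71 for ATPsyndelta, as was ATPsynB of the peripheral stalk at -0.37 (edgeR adjusted p = 0.0155). ATPsynO had -0.24 (adjusted p = 0.0639) and ATPsynD had -0.07 (adjusted p = 0.532). None of the F0 genes was called, with -0.20 for ATPsynC, -0.19 for ATPsynF and -0.41 for ATPsynG, which was the 1 gene with an unadjusted p under 0.05. That the F1 members were called and the F0 members were not does not show that the parts differ, and this difference was not tested.

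Gene length in the deposited table merges all transcripts of a gene, which matters for ATPsyndelta and for ATPsynC, whose annotated transcripts run from 722 to 1794 bases. With the trend removed on the shortest transcript of each gene, an alternative added after the data were seen, 6 of the 10 genes were called lower, with 18.6% of all genes lower in that fit. ATPsyndelta then had a log2 fold change of -0.22 (edgeR adjusted p = 0.0356) and ATPsynC had 0.02 (adjusted p = 0.917). The F1 members were again all called, with ATPsynB and ATPsynO of the stalk and none of the F0 members. This holds for the chosen members only. Of the further subunits described below, sun of the central stalk (log2 fold change -0.31, edgeR adjusted p = 0.100) was not called in this fit. Nor was ATPsynCF6 of the peripheral stalk (-0.02, adjusted p = 0.937).

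**Figure D3:**
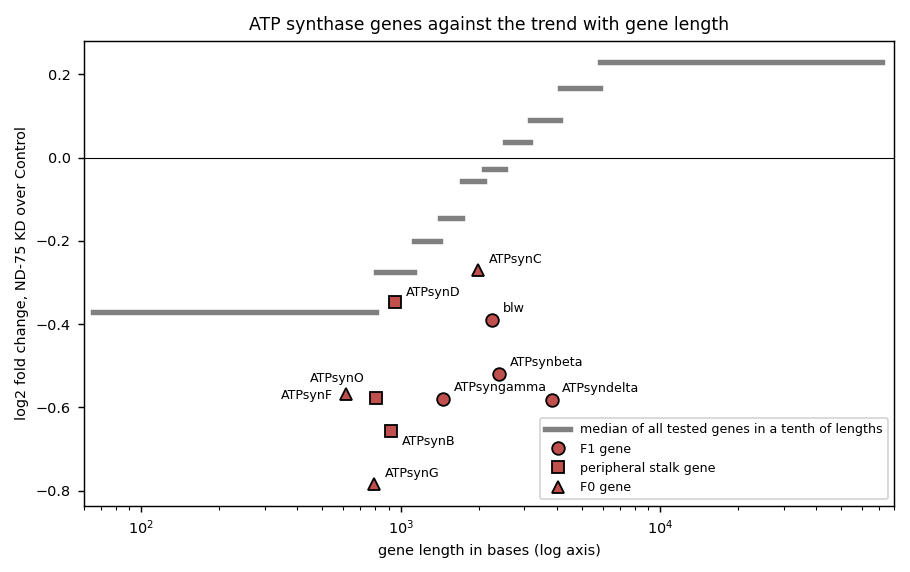
Log2 fold change (ND-75 KD over Control) of the 10 genes against gene length in bases on a log axis, with circles for F1, squares for the peripheral stalk and triangles for F0, and grey bars for the median of all tested genes in each of 10 bins of length. The grey bars climb from -0.37 in the shortest bin to 0.23 in the longest, and all 10 genes lie below the bar of their own bin, with ATPsynD the nearest to it.

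**Figure D4:**
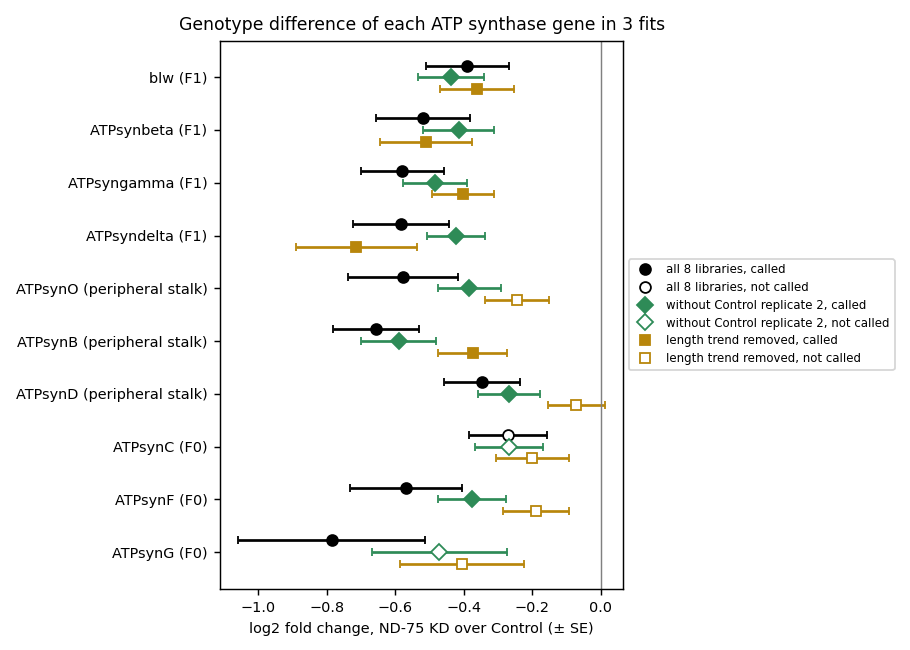
Log2 fold change (ND-75 KD over Control) with its SE for each gene with all 8 libraries, without Control replicate 2 and with the length trend removed, with filled markers for genes called at an adjusted p under 0.05. The 4 F1 genes are filled in all of these fits, as is ATPsynB, and ATPsynC is open in all of them.

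ATPsyngamma, ATPsyndelta and ATPsynB were called lower in all 18 alternatives that were run, ATPsynbeta in 15, ATPsynO in 14, ATPsynF in 12, blw in 10, ATPsynD in 9, ATPsynG in 7 and ATPsynC in 2. Single libraries moved the number of members called. It was 5, 3, 4 and 6 without ND-75 KD replicate 1, 2, 3 or 4 and 8, 8, 5 and 9 without Control replicate 1, 2, 3 or 4, where the share of all genes called lower was 12.9 to 19.7%.

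Further nuclear subunits of the complex were taken from a list of 6 genes, of which 5 had enough reads to be tested and 3 were called lower. ATPsynCF6, the F6 subunit of the peripheral stalk, had 274, 275, 287 and 297 CPM in ND-75 KD replicates 1 to 4, against 389, 405, 368 and 325 CPM in Control replicates 1 to 4 (log2 fold change -0.39 ± 0.10 SE, edgeR adjusted p = 0.0147). The groups did not overlap. For sun, the epsilon subunit of the central stalk, the levels were 194, 183, 188 and 196 CPM in ND-75 KD replicates 1 to 4, against 218, 617, 297 and 228 CPM in Control replicates 1 to 4 (log2 fold change -0.84 ± 0.29 SE, edgeR adjusted p = 0.0466). Control replicate 2 was far above the other Control libraries, and without it sun had -0.38 (adjusted p = 0.0257). CG10731 was called at a low level of 5.15 ± 1.11 CPM in ND-75 KD heads, against 9.47 ± 3.90 CPM in Control heads (SD, n = 4 each; log2 fold change -0.86, edgeR adjusted p = 0.0342) with overlapping groups, and without Control replicate 2 it had -0.56 (adjusted p = 0.0579).

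ATPsynE, a membrane subunit that works with subunit g in dimers, had 303, 294, 319 and 337 CPM in ND-75 KD replicates 1 to 4, against 404, 421, 353 and 329 CPM in Control replicates 1 to 4, and the groups overlapped (log2 fold change -0.27, edgeR adjusted p = 0.0889, and -0.33 with adjusted p = 0.0358 without Control replicate 4). Neb-cGP also overlapped between the groups (log2 fold change -0.68, edgeR adjusted p = 0.0644), and its exons overlap those of nocte on the other strand. It was called lower by DESeq2 (adjusted p = 0.0301), by voom (0.0226) and by edgeR without Control replicate 1 (0.0286) or 4 (0.0444), and without Control replicate 2 its log2 fold change was -0.29 (edgeR adjusted p = 0.0643). After removal of the length trend edgeR called none of these 5 genes, and 2 had an unadjusted p under 0.05. The paralogs ATPsynbetaL, ATPsynGL and ATPsynCF6L, and CG15459 of the list of 6, had too few reads to be tested, and ATPsynepsilonL had a log2 fold change of 0.06 (edgeR adjusted p = 0.931) at under 1 CPM.

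The a subunit, through which protons enter and leave the ring, is encoded by the mitochondrial gene mt:ATPase6. It had 4296, 3863, 5187 and 4695 CPM in ND-75 KD replicates 1 to 4, against 3228, 21528, 5316 and 2873 CPM in Control replicates 1 to 4. The groups overlapped, with Control replicate 2 far above all other libraries, and the log2 fold change was -0.87 ± 0.56 (SE, edgeR adjusted p = 0.250) with that library and 0.25 (adjusted p = 0.378) without it. Relative to the summed F1 level, mt:ATPase6 per kilobase was 2.64, 2.44, 3.37 and 2.84 in ND-75 KD replicates 1 to 4, against 1.55, 8.89, 2.30 and 1.35 in Control replicates 1 to 4. Without Control replicate 2 every ND-75 KD library was above every Control library in this ratio, which carries no test. mt:ATPase8 shares bases with mt:ATPase6, stayed under 4 CPM in every library and was not called (log2 fold change -1.66, edgeR adjusted p = 0.116), except without Control replicate 1 (-2.04, adjusted p = 0.0183). It drew only 3 to 48 reads per library. How reads covering both genes were counted is not given in the sources used here, so these counts may not reflect its level.

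ATP made by the complex leaves the matrix through ADP/ATP carriers, and phosphate enters through phosphate carriers. Of 4 such carriers edgeR called 1 lower, the phosphate carrier Mpcp2, a share near the 18.9% of all genes, and DESeq2 and voom also called sesB. Mpcp2 had 1143, 1137, 1136 and 1111 CPM in ND-75 KD replicates 1 to 4, against 1731, 1600.3, 1733 and 1961 CPM in Control replicates 1 to 4 (log2 fold change -0.63 ± 0.11 SE, edgeR adjusted p = 0.00213). Its groups were far apart, and it was called in all 18 alternatives. The main ADP/ATP carrier sesB had 2919.5, 2959.9, 3209 and 3205 CPM in ND-75 KD replicates 1 to 4, against 3467, 5219, 3757 and 3466 CPM in Control replicates 1 to 4. The sesB groups were separate but the gene was not called by edgeR (log2 fold change -0.37, adjusted p = 0.0956), whereas DESeq2 (adjusted p = 0.0434) and voom (0.0317) called it. Without Control replicate 2 its log2 fold change was -0.21 (edgeR adjusted p = 0.139), and its exons overlap those of its neighbour Ant2 on the same strand. Ant2 had -0.54 (edgeR adjusted p = 0.141) and the phosphate carrier Mpcp1 had -0.17 (adjusted p = 0.349), or -0.05 without Control replicate 2. The genes CG34423 and CG13551, related to the ATPase inhibitor IF1, were not called by edgeR, with -0.25 (adjusted p = 0.709) for CG34423 and -0.56 (adjusted p = 0.0831) for CG13551. CG13551 was called lower by voom (adjusted p = 0.0197) and by edgeR without Control replicate 1 (0.0353) or 4 (0.0401), and without Control replicate 2 it had -0.27 (adjusted p = 0.178).

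**Figure D5:**
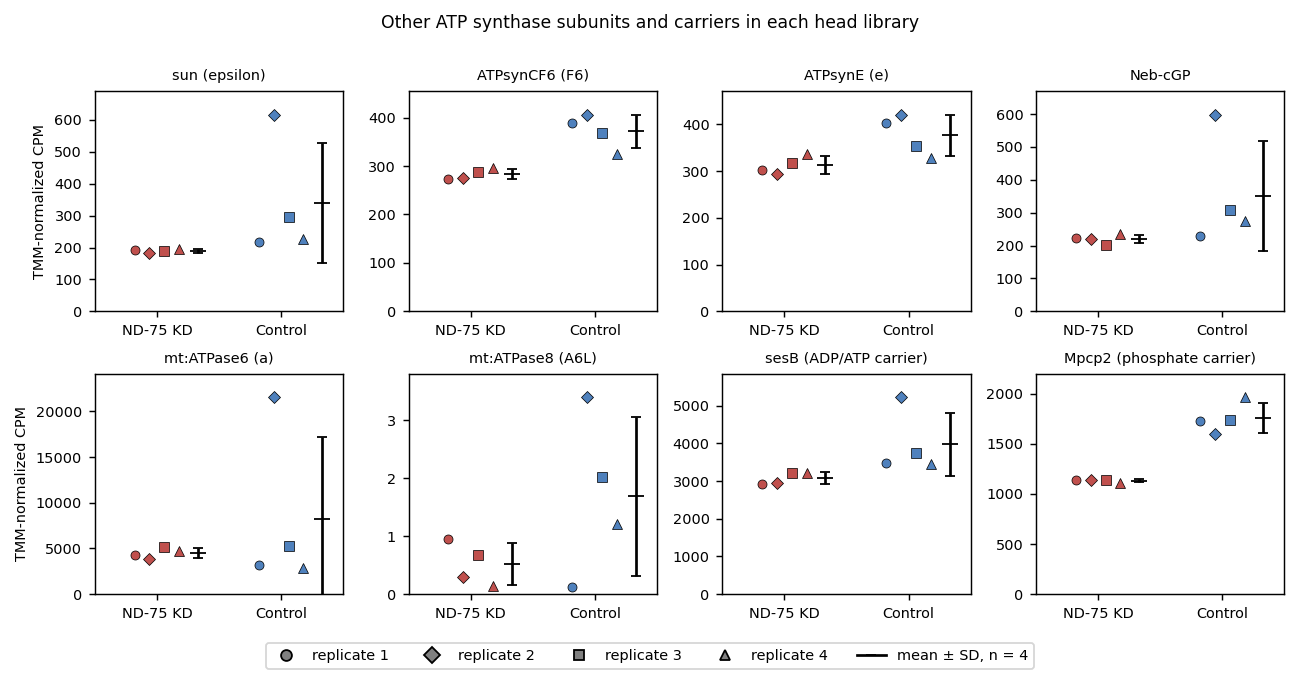
Level in TMM-normalized CPM of further nuclear subunits, mitochondrially encoded subunits and carriers in each library, with ND-75 KD (red) left of Control (blue), marker shape for the replicate number and bars for the mean ± SD (n = 4). Bars that would pass below 0 end at the axis, as for mt:ATPase6, where Control replicate 2 is at 21528 CPM and the other libraries are at 2873 to 5316 CPM.

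Counts for other complexes were taken in the same fit, to set the 9 of 10 ATP synthase genes beside them. The share of all genes called lower was 18.9% in that fit, 18.5% with the length trend removed and 19.0% without Control replicate 2. Nuclear complex I subunits were called lower in 28 of 32 tested genes (median log2 fold change -0.66), or 21 with the length trend removed. The 28 include ND-75, the gene targeted by the RNAi. Nuclear cytochrome c oxidase subunits were called lower in 7 of 10 (median -0.59), or 2 with the length trend removed, with 1 called higher in both fits. The 2 cytochrome c oxidase genes called lower with the length trend removed were 20.0% of those tested, near the share of all genes. Without Control replicate 2 the median of the cytochrome c oxidase genes was -0.35, with 7 called lower and 1 higher. For the V-ATPase, which acidifies vesicles and lysosomes, 2 of 19 tested subunit genes were called lower (median -0.08), or 10.5%, under the share of all genes. Among the mitochondrially encoded respiratory chain genes 0 of 13 were called by edgeR, DESeq2 or voom (1, 1 and 0 at an unadjusted p under 0.05), with a median of -0.87 with all libraries and 0.10 without Control replicate 2, where edgeR called 1 of them higher (2 at an unadjusted p under 0.05). No test of the difference between these lists was made.

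Markers of the cell types in a head moved in different directions. Fat body markers were called lower in 5 and higher in 1 of 7 genes, with a summed level of 3228 to 8210 CPM in ND-75 KD heads, against 23133 to 35502 CPM in Control heads. That sum follows mainly Yp1, Yp2 and Yp3, which reached 5950, 12396 and 17563 CPM in Control heads, with the others at most at 191 CPM. Of the others, fit and to were called lower. Fbp1 was called higher (log2 fold change 1.88, edgeR adjusted p = 0.0327) and Lsp2 was not called (-0.42, adjusted p = 0.136). Photoreceptor markers were called lower in 4 of 8 (29062 to 34737 CPM in ND-75 KD heads, against 38594 to 56263 CPM in Control heads), hemocyte markers in 4 of 4 tested and glial markers in 3 of 6. Muscle markers, from a tissue rich in ATP synthase, were called lower in 1 and higher in 2 of 12 genes (13457 to 14857 CPM in ND-75 KD heads, against 11345 to 18323 CPM in Control heads, highest in Control replicate 2). Neuronal markers were called higher in 6 of 10 (4202 to 4559 CPM in ND-75 KD heads, against 2963 to 3990 CPM in Control heads, lowest in Control replicate 2). Over all tested genes 18.9% were called lower and 14.3% higher. With the length trend removed, neuronal markers were called higher in 4 of 10, and their median log2 fold change went from 0.38 to 0.15. Of all 9986 tested genes, 1657 were called higher and 18.5% lower in that fit. In that fit fat body markers were called lower in 3 and higher in 1 of 7, and photoreceptor markers lower in 3 of 8. The counts for hemocyte, glial and muscle markers were unchanged. The part of these marker shifts in the levels of the ATP synthase genes was not tested.

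The 5 genes outside the complex whose profile over the 8 libraries was nearest to the median profile of the members were mRpL45, Spp, EndoGI, ND-24 and EbpIII. Nearness was the root mean square difference of centred log2 CPM, which was 0.0360 for mRpL45, a protein of the mitochondrial ribosome, 0.0538 for ND-24, a complex I subunit, and 0.0546 for EbpIII. Among the members themselves, which form that median, it was between 0.0431 for ATPsynbeta and 0.336 for ATPsynG. Of the 9954 genes compared, ATPsynbeta was rank 2 in nearness, ATPsynC 889, blw 1211 and ATPsynG 3889. Many genes outside the complex were therefore nearer than some members. The nearness of ATPsynbeta and the distance of ATPsynG describe how far each gene shared the common pattern, including the high values of Control replicate 2.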

How the data were processed

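RNA from whole heads was measured in 4 ND-75 KD and 4 Control libraries, grouped by the genotype in the labels. The deposited counts per gene were made by the authors with fastp, HISAT2 and featureCounts on the Ensembl 102 annotation, with no versions stated. The deposited table also holds values normalized by the authors and their own fold changes and p values from DESeq2, and none of these was used. Counts were analysed in R 4.3.3 with edgeR 4.0.16 (filterByExpr, minimum count 10 and minimum total count 15; TMM; quasi-likelihood test; Benjamini-Hochberg adjustment over 9986 genes; called at an adjusted p under 0.05), and the SE is the size of the log2 fold change over the square root of F. CPM values are scaled by TMM, and levels per kilobase use the gene length of the table. Alternatives were DESeq2 1.42.0, limma 3.58.1 voom with sample weights, DESeq2 size factors, mitochondrially encoded genes left out, other filters, each library's trend with gene length removed by loess (span 0.5), the replicate number as a block, and each library left out. Removal of the trend without Control replicate 2 and on the shortest transcript were added after seeing the data. Gene structure came from the Ensembl 115 annotation, in which 99.7% of 13913 matched genes had the same start and end. Genes named are the 10 members, fixed lists of other subunits, paralogs, inhibitors and carriers, ND-75, and the 5 genes of most similar profile. The members and lists were chosen with earlier results of these data known. ATPsynDL and CG17300, paralogs on the list, were not analysed here.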

Additional observations from a re-analysis of the deposited data

Results flagged for a closer look

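In 4 of 52 groups of 4 libraries that were checked, the highest or lowest library lay far from the others by Dixon's 95% criterion, which compares the gap to the nearest library with the range of the group. Chance gives about 1 such group in 20. All 4 were Control groups and the library was Control replicate 2 each time: ATPsynO at 1001 CPM (gap 0.833 of the range), mt:ATPase6 at 21528 CPM (0.869), sesB at 5219 CPM (0.834), and the ratio of F1 to the peripheral stalk at 1.31 (0.854). In the first 3 that library was the highest, and in the ratio it was the lowest. Without it ATPsynO had a log2 fold change of -0.38 in ND-75 KD over Control heads (edgeR adjusted p = 0.00990).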

How the results depend on the processing

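No alternative called a member higher. The number of members called lower was 10 with DESeq2 and also with voom, which called 23.5% of all genes lower. It was 5 after removal of the length trend, where 18.5% of all genes were called lower. The number was also 5 when Control replicate 2 was left out as well, with 18.2% of all genes lower. Leaving out single libraries gave 3 to 9, with 12.9 to 19.7% of all genes lower. Replicate numbers did not pair the libraries, since libraries of the same number had correlations of -0.11 to 0.03 and none matched best with its own number, and with the replicate number as a block 5 members were called lower, as were 15.6% of all genes. Over the 10 genes and all alternatives, 136 values kept their side of the threshold, 41 lost the call, 2 gained it and 1 changed sign. The difference in log2 F1 over F0 (ND-75 KD minus Control) was -0.03, and -0.10 to 0.01 when single libraries were left out. It was -0.20 with the length trend removed, -0.19 when Control replicate 2 was also left out and -0.32 on the shortest transcript. For F1 over the peripheral stalk it was 0.06, then -0.01 to 0.09, -0.19, -0.14 and -0.15. Uncalled log2 fold changes that changed sign were ATPsynE (0.053 with the length trend removed, 0.11 on the shortest transcript), CG34423 (0.051 and 0.10, and -0.51 to 0.20 when single libraries were left out), Mpcp1 (0.0016, and 0.066 when Control replicate 2 was also left out), ATPsynC (0.024 on the shortest transcript), mt:ATPase6 (-1.15 to 0.25 when single libraries were left out, positive without Control replicate 2, and 0.46 with the length trend also removed) and ATPsynepsilonL (-0.16 to 0.35 when single libraries were left out). Removal of the trend without Control replicate 2, and on the shortest transcript, were chosen after seeing the data. The cause was not tested.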
